A study of Mus musculus with 24 samples.

Results

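The genes described here build and move the motile cilia of multiciliated cells. They were chosen as a list of 45 symbols and looked up in the gene column of the 3 deposited tables, each of which holds the same 24411 genes, and 44 were found. Dnah12, an inner dynein arm heavy chain, was the symbol without a row and was not analysed here. Bulk RNA sequencing was done on hippocampi of male C57BL/6 mice aged 20 months, given 8 tail vein doses over 24 days. Mice received 100 µl per dose of a platelet fraction from young blood (6 mice), of a plasma preparation from young blood (6 mice) or of saline (5 mice), and the plasma donors were 3 months old. In a separate experiment, microglia were taken with CD11b microbeads from dissociated hippocampi of mice of the same strain, sex and age after PF4 (platelet factor, a chemokine released by platelets) at 5 µg per ml (n = 4) or saline (n = 3) on the same schedule. Perfusion before dissection was common to all groups.

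Motile cilia beat through dynein motors set in outer and inner arms along the microtubule doublets, steered by radial spokes, a central pair of microtubules and the nexin-dynein regulatory complex that ties the doublets together. Foxj1 is the transcription factor that drives the genes of this machinery, together with RFX factors, which bind a promoter element called the X-box. In the adult brain, ependymal cells along the ventricle walls bear many motile cilia, which move cerebrospinal fluid, and the neighbouring epithelium of the choroid plexus carries tufts of cilia as well. Neurons and astrocytes bear a single primary cilium that lacks most of these parts, and microglia are not ciliated cells.

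The promoters are shown because one short element recurred in them. RefSeq promoter windows of 300 bases (GRCm38.p6, 250 before the transcription start and 50 after it) were matched for 38 of the 44 genes. The X-box half-site GTTNCC, read on both strands, was present in 32 of these 38 windows (84.2%), against 45.5% of the 27025 promoters of the same length. An inverted pair of half-sites, GTTNCC then GGNAAC with 0 to 3 bases between, was present in 3 of the 38 (7.89%), against 0.821% of all promoters. The forkhead motif GTAAACA occurred in 3 of 38 windows (7.89%), against 3.55% of all, and CCAAT in 17 of 38 (44.7%), against 37.9%. These matches are letters in a window and not measured binding.
The following stretches, each 5′ to 3′ on the strand of the gene, show the paired element of the 3 promoters that hold one and the half-sites of 4 further genes discussed below, with the element or the half-sites in capitals.
Ccdc151: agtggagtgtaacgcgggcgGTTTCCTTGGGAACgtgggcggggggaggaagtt
Fam183b: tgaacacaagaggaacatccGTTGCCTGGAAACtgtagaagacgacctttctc
Iqca: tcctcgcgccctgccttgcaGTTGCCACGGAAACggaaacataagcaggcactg
Cdhr3: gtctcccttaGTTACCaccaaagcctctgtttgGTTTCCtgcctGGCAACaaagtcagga
Spag16: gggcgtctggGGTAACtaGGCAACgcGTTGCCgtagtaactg
Hydin: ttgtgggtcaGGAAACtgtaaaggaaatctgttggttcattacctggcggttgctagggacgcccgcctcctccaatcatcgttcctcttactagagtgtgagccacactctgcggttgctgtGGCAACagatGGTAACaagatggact
Tekt1: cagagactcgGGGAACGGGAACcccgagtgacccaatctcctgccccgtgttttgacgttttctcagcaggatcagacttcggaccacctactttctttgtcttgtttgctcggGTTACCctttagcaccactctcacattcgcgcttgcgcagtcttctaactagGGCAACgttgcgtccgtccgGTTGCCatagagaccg
In GRCm38.p6 these lie at chr9:22002635-22002688 on the minus strand (Ccdc151), chr11:58801944-58801996, minus (Fam183b), chr1:90153503-90153556, minus (Iqca), chr12:33092866-33092925, minus (Cdhr3), chr1:69826841-69826882, plus (Spag16), chr8:110266841-110266989, plus (Hydin), and chr11:72361882-72362083, minus (Tekt1). The pair began 34 bases before the start used for the window in Ccdc151, 16 before it in Fam183b and 100 before it in Iqca. Each window takes 1 start per gene. The stretches of Ccdc151, Fam183b and Tekt1 lie inside the annotated genes, whose 5′ ends are at 22002972, 58802221 and 72362442, so other starts give other distances. Tekt1 had 5 half-sites, and Cdhr3, Spag16 and Hydin had 3 each. The windows shown are among those with the most, as Rsph9 had 1 and Ccdc40, Ak7, Ccdc114, Dnah1, Dnah11 and Meig1 had 0. Foxj1, Tppp3, Rsph1, Rsph4a, Wdr78 and Armc4 had no window.

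The values are normalized counts, a gene's reads divided by a size factor of its library, and the 17 hippocampal libraries are given on one scale set by the saline libraries that both hippocampal tables contain. Counted reads ranged from 6763608 to 7438930 in young platelet fraction hippocampi, from 6586357 to 7739868 in young plasma hippocampi and from 6140510 to 10522699 in saline hippocampi. They ranged from 25401175 to 31649835 in PF4 microglia and from 19855188 to 36342162 in saline microglia. A hippocampal library is 1 mouse by its label, and the numbers of mice given for microglia match the numbers of libraries. The choroid plexus transcript Ttr, which codes for transthyretin, ran from 1621 to 54982 normalized counts in platelet fraction hippocampi, from 1897 to 43232 in plasma hippocampi and from 848 to 30495 in saline hippocampi. In microglia it was between 197501 and 501960 in 3 libraries (PF4-2, PF4-4 and Saline-2) and between 641 and 884 in the other 4. Because whole tissue was sequenced, a change in the number of multiciliated cells and a change in RNA per cell cannot be told apart.

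Levels differed widely among the genes in hippocampus. As CPM (a gene's reads relative to all listed reads of its library) per kilobase of exon, the radial spoke head gene Rsph9 was highest at 25.9, followed by Tppp3 at 20.1 (a tubulin-binding protein) and Rsph1 at 9.94 (another radial spoke head component), as means over 17 hippocampi. Foxj1 itself stood at 2.27 on this scale. The lowest were the dynein heavy chain Dnah11 at 0.0903 and the central pair genes Hydin at 0.126 and Spag17 at 0.138, whose transcripts are long. In normalized counts, Tekt2 at a mean of 3.70, Sntn at 5.15, Spag17 at 8.61, Meig1 at 9.09 and Dnah11 at 9.59 were the 5 genes under 10. Exons of Ccdc39, Mns1, Spag17, Dnah11 and Wdr78 overlap those of a listed gene on the opposite strand by 130 to 2842 bases, and as the 2 sources disagree on whether the libraries keep strand, their counts are uncertain to that extent.

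Foxj1 was measured in every library first. It was lowest at 14.6, median 41.2 and highest at 86.1 normalized counts in platelet fraction hippocampi. In plasma hippocampi these values were 15.3, 51.7 and 101. The 5 saline hippocampi had 23.6, 42.9, 19.4, 23.4 and 36.3. The saline values lay inside the range of either treated group, and 3 of 6 libraries of each treated group exceeded every saline library. The log2 difference (on the scale of log2(normalized count + 1), as for every difference below) was 0.60 ± 0.45 (SE, limma) for plasma minus saline and 0.49 ± 0.41 for platelet fraction minus saline. Two-sided exact permutation tests gave p = 0.242 and p = 0.303, where 0.00433 is the smallest p that 6 against 5 libraries allow.

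**Figure D1:**
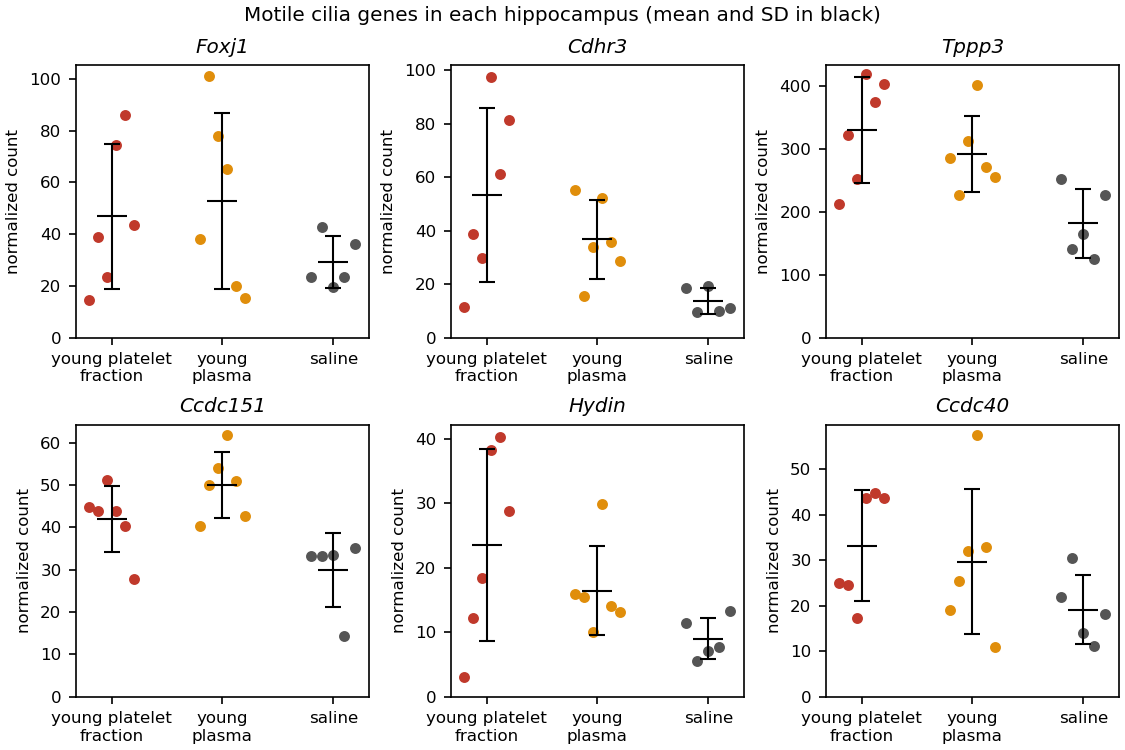
Normalized counts of Foxj1 and of the 5 genes past the threshold in either comparison, with 1 point per hippocampus (6 young platelet fraction, 6 young plasma, 5 saline) and the mean and SD in black. Cdhr3 averaged 53.3, 36.8 and 13.7 in these groups, while the Foxj1 points of the 3 groups overlap.

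After the young plasma preparation, 4 of the 38 genes that could be tested were higher at an unadjusted P of 0.05 and 0 were lower. Of all 13594 genes tested, 1.85% were called higher and 1.51% lower by the same rule, and 0% passed an adjusted p of 0.05 (limma, Benjamini-Hochberg), with 456 at the unadjusted threshold. EdgeR called 5 of the 38 and DESeq2 called 6, again with no gene of the whole table past an adjusted p of 0.05. At the unadjusted threshold these 2 tools called 473 and 505 of all 13594 genes. The 4 genes called by limma were Cdhr3, Tppp3, Ccdc151 and Hydin. The difference was above 0 for 36 of the 44 genes found, with a median of 0.41, against a median of 0 over all listed genes. The listed genes include 5553 without a read in these libraries. Of the 38 tested genes 30 were above 0 with a median of 0.27, against 6432 of all 13594 tested genes and a median of -0.01. The median of 44 was 0.24 without plasma mouse 7156 and 0.24 without saline mouse 7152, each with 30 genes above 0, and 0.17 without the 5 hippocampi 7146, 7152, 7147, 7150 and 7148, which stood apart in an earlier analysis.

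Cdhr3, a cadherin-related membrane protein of ciliated cells, showed the largest of these differences. It was lowest at 15.5, median 34.9 and highest at 55.0 normalized counts in plasma hippocampi, against 18.7, 9.69, 19.4, 10.0 and 10.9 in the saline hippocampi. It was higher by 1.31 ± 0.33 (SE, limma P = 0.00153, adjusted p = 1, exact permutation p = 0.013), and all plasma libraries other than that of mouse 7147 exceeded every saline library. Tppp3 had 226 at its lowest, 279 at its median and 402 at its highest in plasma hippocampi, against 252, 140.5, 165, 126 and 227 in saline hippocampi. Its difference was 0.71 ± 0.19 (limma P = 0.00303, adjusted p = 1, exact permutation p = 0.013), and mouse 7147 was again the one plasma library not above every saline library.

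Ccdc151, which takes part in docking outer dynein arms onto the doublet, was the one gene of the list whose groups did not overlap. Plasma hippocampi ran from 40.2 through a median of 50.4 to 61.9 normalized counts, and the saline hippocampi had 33.3, 33.2, 33.5, 14.5 and 35.0. The difference was 0.77 ± 0.23 (limma P = 0.00589, adjusted p = 1), and the exact permutation p was 0.00433, the smallest possible. Across the table, 0.103% of the genes tested had every plasma library above every saline library. The saline value of mouse 7155 lay far below the other 4, and without that library the call of Ccdc151 was kept.

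Hydin codes for a large protein of the central pair apparatus. It had 10.0, 14.8 and 29.9 normalized counts as the lowest, median and highest plasma hippocampus, against 11.4, 5.54, 7.05, 7.79 and 13.3 in saline hippocampi. The difference was 0.78 ± 0.31 (limma P = 0.0268, adjusted p = 1, exact permutation p = 0.026). It missed the threshold without saline mouse 7146, saline mouse 7152 or plasma mouse 7156, where the difference was 0.64, 0.72 and 0.60. The count of 4 genes was 9 without plasma mouse 7594, and Foxj1 was then among them with a difference of 0.89. Calls over all genes were then 509 of 13538, against 456 of 13594 with all libraries.

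After the young platelet fraction, 3 of 38 genes tested were higher and 0 were lower at the same threshold. Of all 13603 genes tested, 2.41% were called higher, 1.46% lower and 0% at an adjusted p of 0.05 by limma, with 527 at the unadjusted threshold and 11 at an adjusted p of 0.05 in DESeq2. Tppp3, Cdhr3 and Ccdc40 were called, of which Tppp3 and Cdhr3 were also called after the plasma preparation. Both comparisons use the same 5 saline libraries, so the shared calls are not separate evidence. None of the 38 genes had every platelet fraction library above every saline library, as 0.14% of all genes tested did. The difference was above 0 for 40 of the 44 genes, with a median of 0.50, against 0 over all listed genes. The listed genes include 5698 without a read in these libraries. Of the 38 tested genes 34 were above 0 with a median of 0.49, against 6873 of all 13603 tested genes and a median of 0.002. The median of 44 was 0.29 without mouse 7157, 0.31 without mouse 7154 and 0.33 without saline mouse 7152. EdgeR called 9 of the 38 genes and DESeq2 called 10, the additional ones including Ccdc153, Enkur, Hydin, Iqca, Rsph1 and Tmem212 with both tools. Over all 13603 genes these tools called 527 and 562.

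Tppp3 was lowest at 212, median 349 and highest at 419 normalized counts in platelet fraction hippocampi, with the saline values given above. The difference was 0.87 ± 0.22 (limma P = 0.00146, adjusted p = 0.998, exact permutation p = 0.0173), and 5 of 6 libraries lay above every saline library. Cdhr3 had 11.4, 49.95 and 97.4 as lowest, median and highest, and differed from saline by 1.65 ± 0.46 (limma P = 0.00319, adjusted p = 0.998, exact permutation p = 0.0173), again with 5 of 6 above every saline library. The exception for both genes was mouse 7145, which held the lowest value of both in this group.

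Ccdc40 forms, with Ccdc39, the ruler that sets the spacing of dyneins and spokes along the doublet. The platelet fraction hippocampi fell into 3 low and 3 high values, 25.0, 24.5 and 17.4 in mice 7145, 7148 and 7151 against 43.8, 44.7 and 43.6 in mice 7154, 7157 and 7595. The saline hippocampi had 22.0, 30.4, 14.1, 11.1 and 18.1. The difference was 0.76 ± 0.31 (limma P = 0.0312, adjusted p = 0.998), while the exact permutation p was 0.0563. It missed the threshold without saline mouse 7152 or 7155 and without platelet fraction mouse 7154, 7157 or 7595, with differences between 0.59 and 0.67. Its partner Ccdc39 had 37.8, 50.1 and 62.2 as lowest, median and highest in platelet fraction hippocampi, against 43.1, 68.5, 39.6, 58.9 and 67.7 in saline hippocampi, a difference of -0.12 ± 0.20 (exact permutation p = 0.515). Ccdc151, called after plasma, had 27.8, 43.9 and 51.2 in platelet fraction hippocampi and differed by 0.52 ± 0.25, which missed the threshold in limma while the exact permutation p was 0.0346.

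The count of 3 genes depended on single mice. It was 14 without platelet fraction mouse 7145 and 6 without mouse 7148. It was 5 without saline mouse 7155 and 5 without saline mouse 7596. Calls over all genes were then 870 of 13528, 792 of 13527, 585 of 13514 and 566 of 13540. They were 527 of 13603 with all libraries. The count of 3 fell to 2 without saline mouse 7152, without platelet fraction mouse 7154 and without platelet fraction mouse 7157. Calls over all genes were 359 of 13540, 353 of 13517 and 344 of 13519 in these 3 runs. Without mouse 7145, Foxj1 passed the threshold with a difference of 0.77, as did Rsph1 at 0.92, Hydin at 1.45, Ccdc153 at 1.61 and Ak7 at 0.81. No label sets mouse 7145 apart from its group, so the value with all 6 libraries is the one reported.

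**Figure D2:**
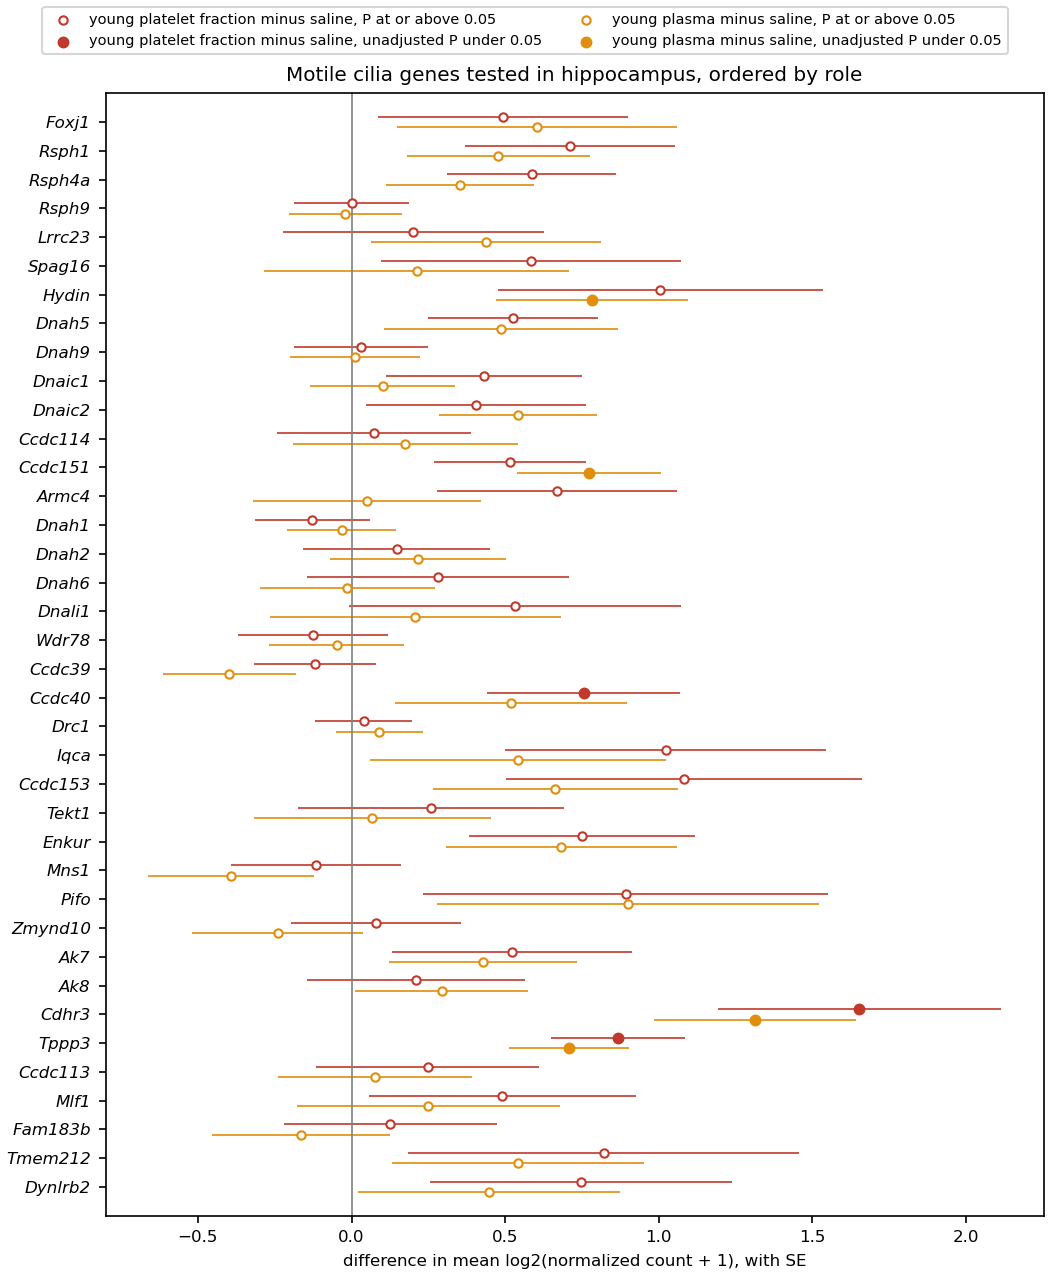
Log2 differences with SE for the 38 genes tested, young platelet fraction minus saline above young plasma minus saline for each gene, with filled points for unadjusted P under 0.05. Right of 0 lie 34 of 38 points after the platelet fraction and 30 of 38 after plasma, led by Cdhr3 at 1.65 and 1.31, while Rsph9, Dnah9 and Drc1 lie close to 0 in both.

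Grouped by role, the differences were unequal. For platelet fraction minus saline, the median over 3 genes of the nexin-dynein regulatory complex was 1.02, over 2 tested central pair genes 0.79, over 7 tested other genes of ciliated cells 0.75, over 4 radial spoke genes 0.39 and over 3 inner arm heavy chains 0.15. For plasma minus saline the same medians were 0.54, 0.50, 0.45, 0.40 and -0.01. The medians of the other roles lay between 0.08 (dynein assembly, 1 gene) and 0.52 (outer arm docking) after the platelet fraction. After plasma they lay between -0.24 (dynein assembly, 1 gene) and 0.60 (Foxj1 alone). The median of the regulatory complex is the value of 1 gene, Iqca, at 1.02 ± 0.52 after the platelet fraction and 0.54 ± 0.48 after plasma. Ccdc153, a subunit of the regulatory complex, had 5.20, 51.3 and 100.1 normalized counts as lowest, median and highest in platelet fraction hippocampi and 9.86, 28.7 and 74.1 in plasma hippocampi, against 25.2, 13.8, 15.9, 16.7 and 16.9 in saline hippocampi. Its difference was 1.08 ± 0.58 after the platelet fraction (exact permutation p = 0.152) and 0.66 ± 0.40 after plasma (exact permutation p = 0.165), so neither passed, although 5 of 6 platelet fraction libraries exceeded every saline library. Drc1, of the same complex, did not share that pattern and had differences of 0.04 ± 0.16 and 0.09 ± 0.14.

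Several of the most abundant genes had differences near 0. Rsph9 had 197, 313 and 429.6 as lowest, median and highest in platelet fraction hippocampi and 194, 290.1 and 419 in plasma hippocampi, against 270.0, 309, 247, 353 and 326 in saline hippocampi, with differences of 0.00 ± 0.19 and -0.02 ± 0.18. The outer arm heavy chain Dnah9 averaged 185 ± 50.4 in platelet fraction, 181 ± 49.5 in plasma and 180.0 ± 49.1 in saline hippocampi (SD). The inner arm heavy chain Dnah1 averaged 94.0 ± 16.9, 99.9 ± 12.3 and 105 ± 27.4 in the same order of groups. Tppp3, at a mean of 273.5 over the 17 hippocampi, was also abundant and was called. For the remaining heavy chains, the differences after the platelet fraction and after plasma were 0.53 ± 0.28 and 0.49 ± 0.38 for Dnah5 (outer arm), 0.15 ± 0.30 and 0.22 ± 0.29 for Dnah2 (inner arm), and 0.28 ± 0.43 and -0.01 ± 0.29 for Dnah6 (inner arm), and none of these 3 genes passed.

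Spread within a group was wide for the other structural genes. Tekt1, a tektin filament protein inside the doublet, had 21.9, 62.2 and 150.5 in platelet fraction hippocampi and 19.7, 50.8 and 115 in plasma hippocampi as lowest, median and highest, against 46.4, 63.0, 29.1, 67.8 and 58.0 in saline hippocampi. The differences were 0.26 ± 0.43 and 0.07 ± 0.39. After the platelet fraction and after plasma, Spag16 (central pair) differed by 0.58 ± 0.49 and 0.21 ± 0.50, Dnali1 (inner arm light intermediate chain) by 0.53 ± 0.54 and 0.21 ± 0.47, and Pifo, a factor of ciliary signalling and disassembly, by 0.89 ± 0.66 and 0.90 ± 0.62. Rsph1 came nearer to the threshold, with 53.1, 113 and 207 in platelet fraction hippocampi against 71.6, 72.0, 41.4, 91.2 and 68.9 in saline hippocampi (0.71 ± 0.34, exact permutation p = 0.126). The intermediate chains Dnaic1 and Dnaic2 (outer arm) differed by 0.43 ± 0.32 and 0.40 ± 0.36 after the platelet fraction and by 0.10 ± 0.24 and 0.54 ± 0.26 after plasma. Of the remaining named genes, Ccdc114 (outer arm docking), Wdr78 (inner arm), Zmynd10 (dynein assembly in the cytoplasm), Ak7 and Ak8 (adenylate kinases) differed by -0.12 to 0.52 after the platelet fraction and by -0.24 to 0.43 after plasma, and 0 of these 5 passed.

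The 6 genes that the filter left out of both tests were Spag17, Dnah11, Tekt2, Tekt4, Sntn and Meig1. Their values ran from 0 to 31.8 normalized counts over the libraries of the 2 tables, with Dnah11 highest in mouse 7157. Dnah11 had 2.04, 13.1 and 31.6 as lowest, median and highest in platelet fraction hippocampi and 6.58, 9.05 and 13.8 in plasma hippocampi, against 4.07, 1.384, 0.88, 4.45 and 8.46 in saline hippocampi. At these counts a difference was hard to detect. A run without a filter called 4 members after the platelet fraction and 5 after plasma, Dnah11 being the addition in both. Over all genes that run called 781 of 18713 after the platelet fraction and 679 of 18858 after plasma.

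For young platelet fraction minus young plasma, 0 of 42 genes tested passed in either direction by limma, edgeR or DESeq2. Of all 13693 genes, 0.869% were called higher, 1.03% lower and 0% at an adjusted p of 0.05, with 260 at the unadjusted threshold. Differences over the 42 genes ran from -0.32 for Tekt4, a doublet tektin, to 0.62 for Armc4, an outer arm docking protein. Armc4 had 6.24, 21.1 and 30.6 as lowest, median and highest in platelet fraction hippocampi and 7.67, 10.8 and 24.3 in plasma hippocampi (0.62 ± 0.37, exact permutation p = 0.136). The median difference over 44 genes was 0.18, and 32 were above 0. That median was -0.03, with 20 above 0, when the 3 mice numbered 7594 to 7596 were left out, so no order of the treatments can be read from it. It was 0.04 without plasma mouse 7594 and 0.32 without plasma mouse 7156, and among platelet fraction mice 0.33 without 7145, 0.02 without 7154, 0.01 without 7157 and 0.11 without 7595. Without plasma mouse 7156 Armc4 and Ccdc39 were called, and without platelet fraction mouse 7145 Armc4 was. Calls over all genes were then 280 of 13636 and 298 of 13628.

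**Figure D3:**
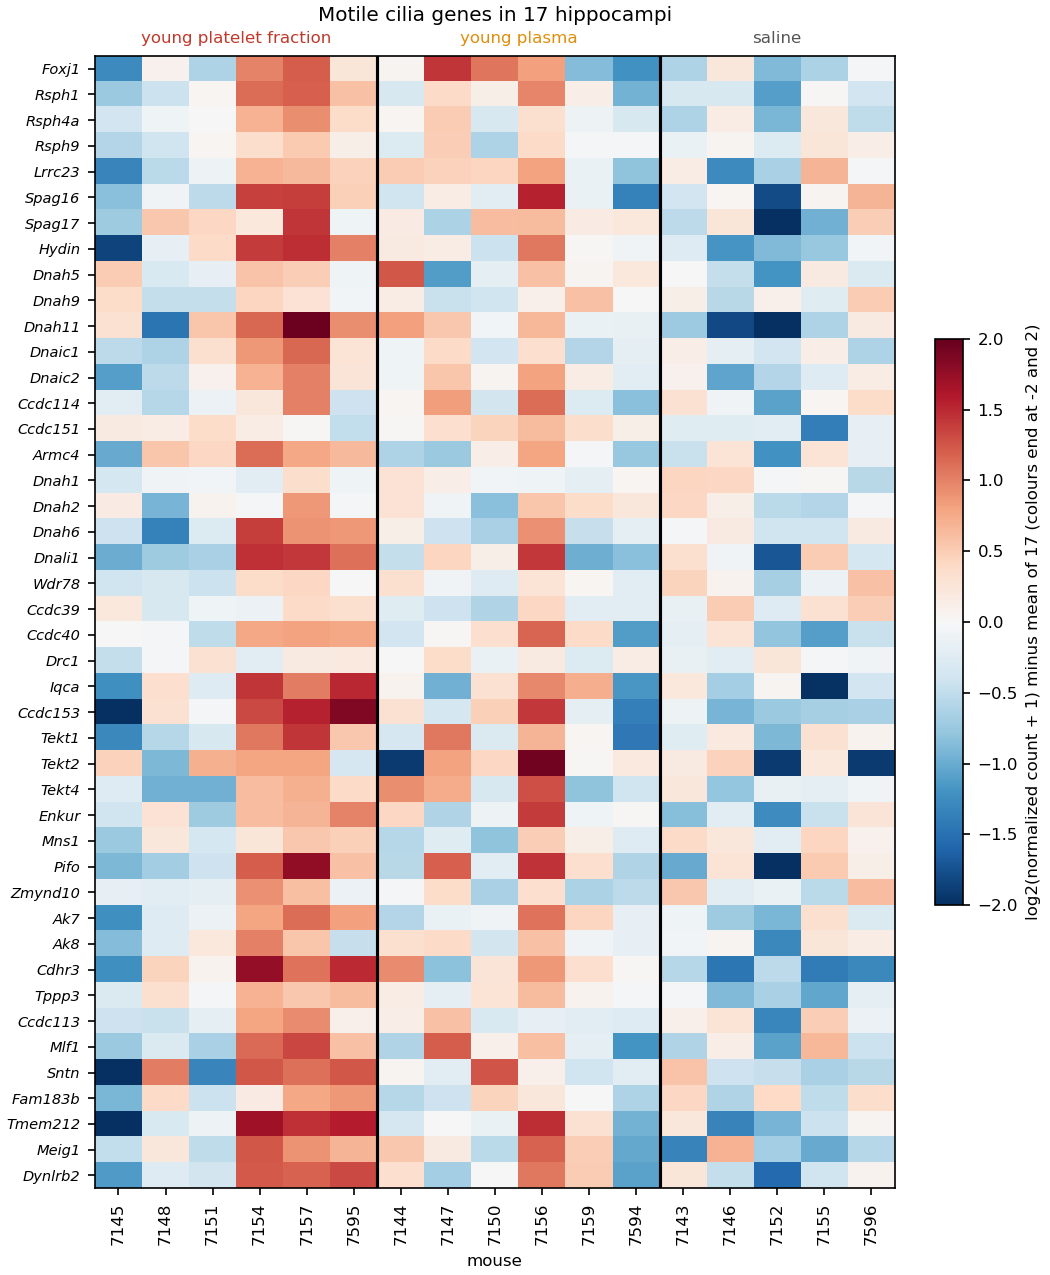
Log2(normalized count + 1) of the 44 genes minus each gene's mean over the 17 hippocampi, red above and blue below, with mice in columns and genes in rows ordered by role. Mice 7154, 7157 and 7595 of the platelet fraction group and mouse 7156 of the plasma group are red in most rows, and mice 7145 and 7152 are blue in most.

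Many members were high or low together in single mice. In mice 7157, 7154 and 7595 of the platelet fraction group, 37, 34 and 25 of the 44 genes exceeded every saline library, and in plasma mouse 7156 34 did. In the other 8 treated mice this count was between 4 and 18. It was not made over all genes, so these counts have no share of all genes to be read against. Of the 44 genes, 36 had their highest value among 17 hippocampi in 1 of these 4 mice. The lowest value was in saline mouse 7152 for 16 genes and in platelet fraction mouse 7145 for 10. Summed over the 44 genes, the 6 platelet fraction hippocampi had 1499.6, 1798, 1904, 3308, 3512 and 2737 normalized counts in mice 7145, 7148, 7151, 7154, 7157 and 7595. The plasma hippocampi had between 1701 and 3168 and the saline hippocampi between 1436 and 2068.

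As differences from group means, 39 genes with a mean of at least 10 were each correlated with the mean of the others over the 17 hippocampi. The median r was 0.74, and 32 of 39 genes were above 0.5, led by Rsph1 at 0.94, Tmem212 at 0.91 and Spag16 at 0.91. Ccdc151 at -0.08, Dnah1 at 0.19, Drc1 at 0.19, Dnah9 at 0.21 and Dnah5 at 0.26 were lowest. These are descriptions over points that share a dissection and a library, and they come without a test. Ccdc151, called after plasma with groups that did not overlap, was thus the member that followed the others least.

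Markers of some other cells moved with these mice. The mean over 24 choroid plexus genes followed the mean over the 39 genes with r = 0.73 within groups, and the mean over 10 oligodendrocyte genes did so with r = 0.54. Single genes with a mean of at least 50 were also correlated with the mean over the 39 genes within groups. The median r was 0.71 for choroid plexus genes, 0.51 for oligodendrocyte genes and 0.33 for ependymal genes outside the cilium. It was -0.01 for endothelial and mural, -0.095 for microglia, -0.24 for meningeal fibroblast, -0.30 for neuron and -0.33 for astrocyte genes. The choroid plexus genes summed to between 7604 and 104706 normalized counts in platelet fraction hippocampi, between 8895 and 94802 in plasma hippocampi and between 4909 and 64692 in saline hippocampi. Of these 24 genes, 0 passed the threshold in either treatment, with median differences of 0.31 after the platelet fraction and 0.19 after plasma, and none was at 0 in all libraries. All 10 oligodendrocyte genes were called higher after the platelet fraction and 9 of 10 after plasma, with medians of 0.64 and 0.50. Of all genes tested, 2.41% and 1.85% were called higher in these comparisons. With log2 Ttr as a covariate, 6 members were called after the platelet fraction (Cdhr3, Ccdc151, Ccdc40, Rsph1, Rsph4a and Tppp3) and 5 after plasma (Cdhr3, Ccdc151, Hydin and Tppp3 higher, Ccdc39 lower), and the members' medians were 0.40 and 0.39. With this covariate, calls over all genes were 544 of 13602 after the platelet fraction and 485 of 13593 after plasma. The part of the oligodendrocyte transcripts in the result was not tested. The genes followed these lists unequally, as Pifo, Ccdc113 and Rsph4a had r of 0.87, 0.86 and 0.84 with the choroid plexus mean, while Cdhr3, Tppp3, Fam183b and Iqca had 0.12, 0.14, -0.08 and 0.10 with it and 0.60, 0.74, 0.67 and 0.63 with the oligodendrocyte mean.

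**Figure D4:**
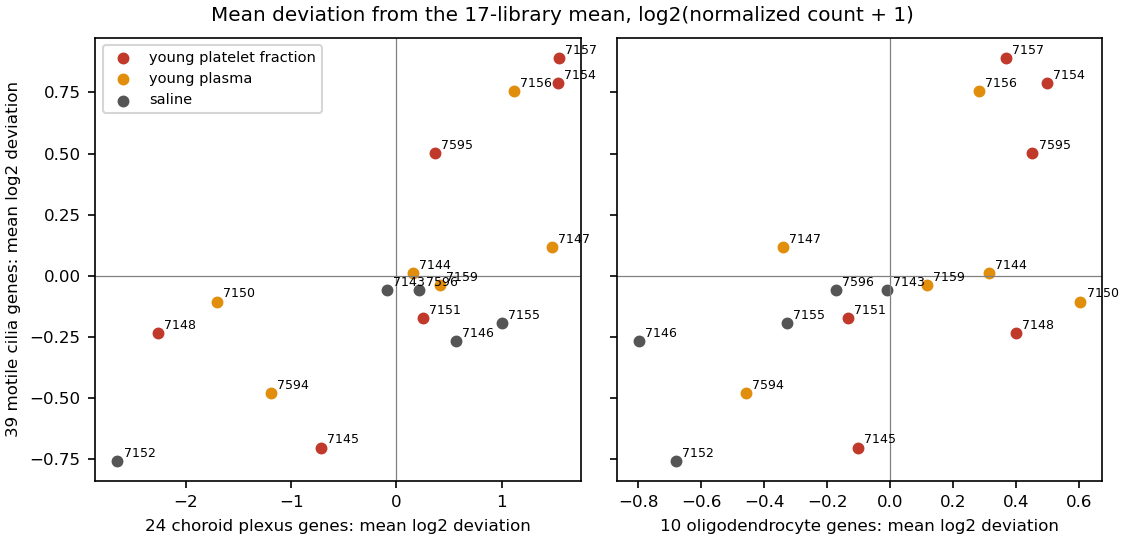
Mean log2 deviation of 39 motile cilia genes (y) from the mean of 17 hippocampi, against that of 24 choroid plexus genes (left) and 10 oligodendrocyte genes (right), 1 point per mouse. Mice 7154, 7157 and 7156 are high on all 3 measures, while mice 7148 and 7150 are low in choroid plexus genes at about average cilia genes.

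Foxj1 was set against 1 marker each of 4 other cell types over the 17 hippocampi. With Prox1, a transcription factor of dentate granule neurons, Pearson's r was -0.81 (permutation p = 0.00012, adjusted over 4 relations 0.00048) and Spearman's rho -0.77 (permutation p = 0.00047, adjusted 0.00188). Within groups r was -0.83, and without the 2 libraries farthest from the median of Prox1 it was -0.73. With the astrocyte water channel Aqp4, which ependymal cells also express, r was -0.57 (permutation p = 0.0177, adjusted 0.0354) and rho -0.58 (permutation p = 0.0172, adjusted 0.0301), with -0.59 within groups and -0.50 without the 2 farthest libraries. With Ttr, r was 0.40 (permutation p = 0.11, adjusted 0.146) and rho 0.56 (permutation p = 0.0226, adjusted 0.0301), with 0.40 within groups and 0.39 without the 2 farthest libraries. With the myelin gene Mog, r was 0.35 (permutation p = 0.163, adjusted 0.163) and rho 0.44 (permutation p = 0.077, adjusted 0.077), with 0.24 within groups and 0.40 without the 2 farthest libraries. Without the 5 hippocampi that stood apart, Foxj1 correlated over 12 libraries with Ttr at r = 0.85 (permutation, adjusted p = 0.00212) and with Mog at 0.69 (adjusted 0.0194), both then past the threshold. With Aqp4 it was -0.58 (permutation, adjusted p = 0.0514), then short of it, and with Prox1 -0.72 (adjusted 0.0194). Over the 39 genes with a mean of at least 10, r with Prox1 within groups ran from -0.83 for Foxj1 to 0.34. Its median was -0.35, and Hydin, Ccdc40, Tppp3, Ccdc151 and Cdhr3 had -0.40, -0.21, -0.20, -0.08 and -0.07. Each point is 1 dissection and 1 library, and the makeup of the dissected tissue was not measured.

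Other lists of cilia genes were counted in the same fits, to be read against the 2.41% of all genes called higher and 1.46% lower after the platelet fraction, and 1.85% higher and 1.51% lower after plasma. Medians in this paragraph are over tested genes, for which the members had 0.49 and 0.27. Among 77 further axonemal and motile cilia genes, 49 could be tested after the platelet fraction, of which 6 were higher and 0 lower with a median of 0.33, and 44 after plasma, of which 2 were higher and 0 lower with a median of 0.20. Over all 77 genes the medians were 0.48 and 0.28. The most abundant of that list, Rsph3a, a radial spoke gene, and Gas8, of the nexin-dynein regulatory complex, differed by 0.09 ± 0.13 and -0.07 ± 0.09 after the platelet fraction. Of 52 genes of intraflagellar transport and the primary cilium, 0 were higher and 2 lower after the platelet fraction and 0 higher and 1 lower after plasma, with medians of 0.01 and -0.01. Ift122, of the retrograde transport complex, was one of the 2, at -0.26 ± 0.08. Of 14 ependymal genes outside the cilium, 2 and 1 were higher, with medians of 0.10 and 0.08.

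Of 9 listed regulators of multiciliation other than Foxj1, 5 could be tested after the platelet fraction and 4 after plasma, and limma called none. Of the 5, 1 had no saline library at 10 and so entered the test only through its platelet fraction values. Rfx3, an X-box factor that neurons express as well, differed by -0.16 ± 0.11 after the platelet fraction and -0.28 ± 0.13 after plasma and did not pass, and Rfx2, a related factor, by 0.31 ± 0.29 and 0.37 ± 0.25. Ccno, a cyclin-like gene of centriole amplification, and Trp73, a transcription factor upstream of Foxj1, lay between -0.18 and 0.12 in both comparisons. All 4 have means between 36.2 and 395 normalized counts over the 17 hippocampi.

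Among 10619 genes outside the list with a mean of at least 50, those most like the mean of the 39 genes within groups were Fxyd1 (r = 0.93), 2410004P03Rik (0.92), Cpt2 (0.91), Ccdc108 (0.91), Ubxn11 (0.91), Rarres2 (0.90), Atp6v0e (0.89), Ctsd (0.88), Cd63 (0.87) and Car14 (0.87), over 17 libraries. Ccdc108 was on the list of further cilia genes and Rarres2, the chemoattractant chemerin, on that of ependymal genes outside the cilium. Rarres2 was called after the platelet fraction with a difference of 0.73, and 2410004P03Rik after plasma with 0.53. Likeness of this kind is a description of these libraries.

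In microglia, PF4 was compared with saline. Of the 44 genes, 8 could be tested and 0 passed the unadjusted P of 0.01 by limma or edgeR, while DESeq2 called 1, Dnaic1. Of all 11320 genes tested, 0.221% were higher, 0.168% lower and 0% past an adjusted p of 0.05 by limma, with 391 at an unadjusted P of 0.05 and 41 at an adjusted p of 0.05 in DESeq2. The 8 genes were Rsph9, Dnaic1, Dnah6, Ccdc39, Tekt1, Enkur, Tppp3 and Mlf1. One of them, Dnaic1, had no saline library at 10 and so entered the test only through its PF4 values.

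**Figure D5:**
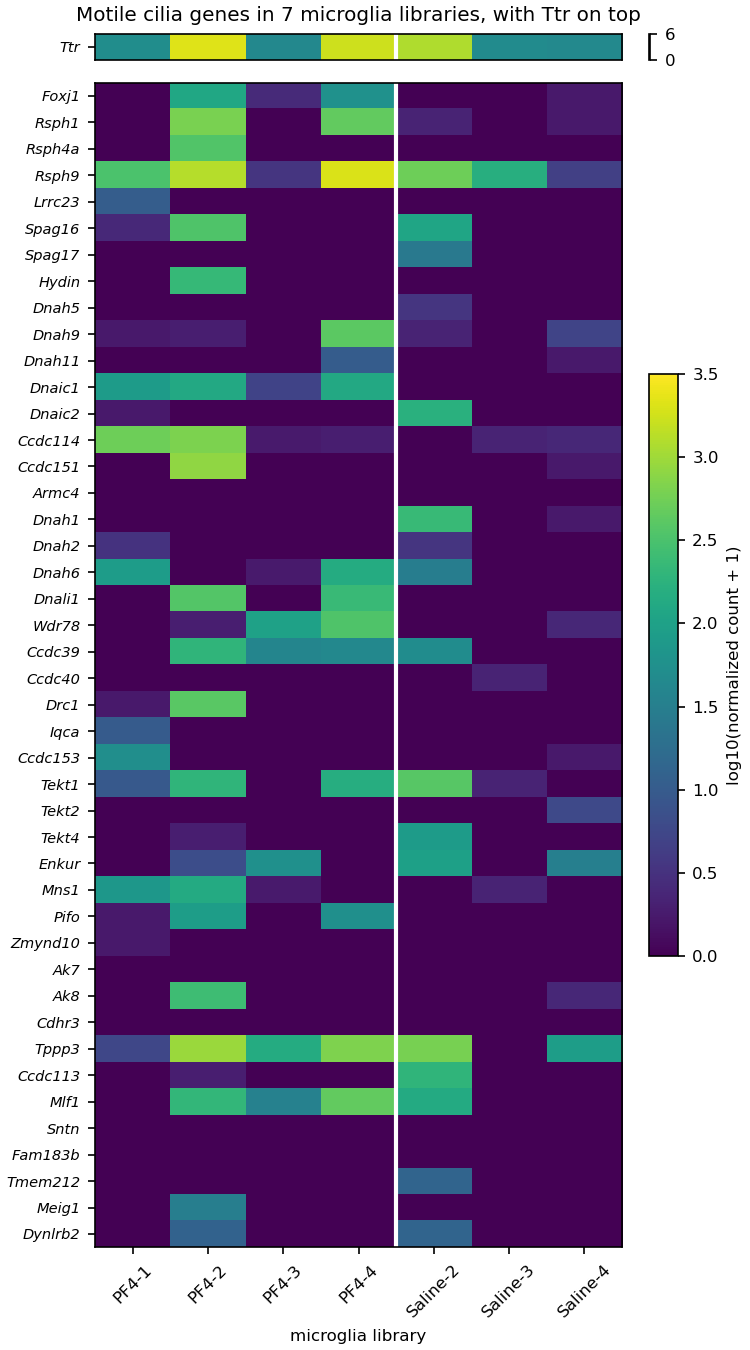
Log10(normalized count + 1) of 44 motile cilia genes in 4 PF4 and 3 saline microglia libraries, with Ttr on its own scale in the top row. Most cells of the map are at or near 0, and the filled cells lie mainly in PF4-2, PF4-4 and Saline-2, the libraries with Ttr between 197501 and 501960.

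Most genes were at or near 0 in most microglia libraries. Of the 44, 5 genes (Armc4, Ak7, Cdhr3, Sntn and Fam183b) had 0 reads in each of the 7 libraries, which does not show that their transcripts were absent. Of the 44 genes, 9 had 4 or more reads in no library, 17 in 1 library, 10 in 2 libraries and 8 in 3 to 6 libraries. Saline-2, PF4-2 and PF4-4 held 50 of 132 gene and library values at 4 or more reads, against 22 of 176 in the other 4 libraries. Summed over the 44 genes, PF4-1 to PF4-4 had 1187, 7381, 379 and 5181 normalized counts, against 2680, 160 and 141 in Saline-2, Saline-3 and Saline-4.

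Foxj1 had 0, 122, 1.63 and 57.8 normalized counts in PF4-1 to PF4-4, against 0, 0 and 0.71 in Saline-2 to Saline-4. It was above 2 only in PF4-2 and PF4-4, and the difference of 3.30 gave an exact permutation p of 0.229, in a design of 4 against 3 libraries that cannot go below 0.0571. Hydin had 218 in PF4-2 and 0 in the other 6 libraries, and Ccdc151 had 832 in PF4-2 and under 1 elsewhere. Dnah1 had 230 in Saline-2 and under 1 elsewhere.

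Dnaic1 had 83.0, 129, 4.09 and 127 normalized counts in PF4-1 to PF4-4 and 0 in each saline library, so its groups did not overlap, as for 2.39% of all genes tested. Since its PF4 values alone carried it past the filter, the difference is given as a description.

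Rsph9 and Tppp3 were the genes seen most often, each at 4 or more reads in 6 libraries. Rsph9 had 317, 1299, 2.45 and 2016 in PF4-1 to PF4-4, against 533, 156 and 3.57 in the saline libraries (1.68 ± 2.41, exact permutation p = 0.514). Tppp3 had 4.57, 935, 141 and 673.5 in PF4-1 to PF4-4, against 608, 0 and 87.8 in the saline libraries (1.98 ± 2.55, exact permutation p = 0.4). The highest 3 values of either gene fell in the 3 libraries high in Ttr, and all 21 choroid plexus genes tested were higher in value in PF4 microglia, with a median of 2.12 and 0 called. Without those 3 libraries, a choice made after seeing the data, 0 members remained testable. The microglia genes P2ry12 and Tmem119 had 39953 to 51157 and 118884 to 177946 normalized counts in PF4 microglia, against 34694 to 50802 and 130589 to 158221 in saline microglia, so both were abundant in each library.

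The levels of saline microglia and saline hippocampi were set side by side in CPM, with no test, as the tables were normalized separately. In both Saline-3 and Saline-4, 42 of 44 genes were below every saline hippocampus. Foxj1 was at 0 to 0.0275 CPM in saline microglia, against 2.55 to 5.89 in saline hippocampi. Saline-2 had 6 genes above every saline hippocampus, among them Tekt1 at 15.6 CPM, against 3.82 to 9.40 in hippocampi. Ttr in that library was at 8013 CPM, against 112 to 4224 in saline hippocampi, while the neuronal gene Snap25 was at 0.0504, against 3450 to 4295. The part of choroid plexus or ependymal material in these values was not tested.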

How the data were processed

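By the paper's methods and the labels, reads were aligned to mm10 with STAR 2.7.3a and counted per gene with RSEM 1.3.1, and the authors deposited counts divided by DESeq2 size factors (a signal per gene and library, unit normalized count). The labels name a strand-specific poly(A) kit and the methods a modified Smart-Seq2 protocol. The tables also hold the authors' fold changes, standard errors and p-values, which were not used. Each value was a whole multiple of 1 step per library (100% within 0.01 of a read), so reads were recovered. No molecular identifiers are described, so PCR copies may count separately.

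The limma 3.58.1 fit (R 4.3.3, variance trend) used log2(normalized count + 1), 2 groups at a time, on genes at 10 or more in 5 hippocampal or 3 microglia libraries, and p-values were adjusted over all genes. The calling threshold was an unadjusted P of 0.05 in hippocampus and 0.01 in microglia. Exact permutation tests compared means of the same log2 values, 1 gene at a time and two-sided. Platelet fraction and plasma were compared after scaling the platelet fraction table by 0.995. Tested on simulated data, 73 of 100 genes changed by 1.5-fold were recovered for plasma, 78 for the platelet fraction, 75 for the platelet fraction against plasma and 3 for PF4. At 3-fold, 99, 98, 100 and 33 were recovered. The changed genes were drawn at random from all genes tested, so these rates were not measured for the motile cilia genes. A motile cilia gene that was not called is therefore not shown to be unchanged. Alternatives were pseudocounts of 0.5 and 5, 3 other filters, TMM, library totals, edgeR 4.0.16, DESeq2 1.42.0, a Ttr covariate, a replicate block, a joint fit of the 3 hippocampal groups and leaving out libraries. The genes, lists, roles and rules were chosen with earlier results of these data known. Named were Foxj1, each called gene, the 2 most abundant genes of a role, the abundant genes of each list and the 10 most correlated others, with other members named by their values. Coordinates and promoters are from RefSeq (GRCm38.p6) and exon lengths from GENCODE.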

Additional observations from a re-analysis of the deposited data

Results flagged for a closer look

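In each group of 4 to 6 libraries, the highest and lowest value of each of 26 named genes was set against its neighbour with Dixon's test. In hippocampus 8 of 78 groups of values (10.3%) stood apart, where chance gives about 5%. In saline hippocampi, Ccdc151 was low in mouse 7155 (14.5 normalized counts, the next at 33.2) and Ccdc153 was high in mouse 7143 (25.2, the next at 16.9). In plasma hippocampi, mouse 7156 was apart and high for Spag16 (79.6), Hydin (29.9), Dnah6 (43.1) and Ccdc39 (64.2). In platelet fraction hippocampi, mouse 7157 was apart and high for Ccdc114 (81.8) and Dnah1 (125). In PF4 microglia 9 of 26 groups stood apart, in each of which the next library was at 1.52 normalized counts or below, so that the chance rate does not apply. PF4-2 was apart for Spag16 (346), Hydin (218), Ccdc151 (832), Drc1 (403) and Ak8 (256), PF4-4 for Dnah9 (419.6) and PF4-1 for Ccdc153 (53.3), Dnaic2 (0.761) and Zmynd10 (0.761), of which the last 2 are a single read each.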

How the results depend on the processing

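Over 1945 values of the named genes under alternatives, 143 had the other sign, none of which passed the threshold, and of 163 values of genes called in their comparison 0 had the other sign and 12 missed the threshold, all for Hydin after plasma or Ccdc40 after the platelet fraction. Members called after plasma (4) were 1 with a filter at 50, where few members remain testable, and 8 without mice 7594 to 7596. Members called after the platelet fraction (3) were 1 with a filter at 50, 9 with edgeR, 10 with DESeq2, 6 with the Ttr covariate and 6 with the 3 hippocampal groups in one fit. PF4 microglia had 0 and DESeq2 gave 1. Apart from the filter, the cause was not tested. Leaving out 1 library at a time gave 3 to 9 called members for plasma, 2 to 14 for the platelet fraction, 0 to 2 between the treatments and 0 to 1 in microglia. The median difference of the 44 genes then ran over 0.24 to 0.49, 0.29 to 0.70, 0.01 to 0.33 and 0 to 1.41. Between the treatments that median reversed to -0.0287 without mice 7594 to 7596. Calls over all genes moved by over 1.5 times to 300 for plasma (456) without the 5 hippocampi that stood apart in an earlier analysis (7146, 7152, 7147, 7150 and 7148), 298 without 7146 and 297 without 7156. For the platelet fraction (527) they were 870 without 7145, 792 without 7148 and 344 without 7157, and between the treatments (260) 473 without a filter, 438 without 7159 and 441 without 7148. In microglia (44) they were 179 with DESeq2, 9 without the 3 libraries high in Ttr, 25 without Saline-3, 123 without Saline-4, 71 without PF4-3 and 22 without PF4-4.

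Without the 5 hippocampi that stood apart, 3 members were called in either treatment and the medians were 0.17 for plasma and 0.38 for the platelet fraction. Over the remaining 12 hippocampi, Foxj1 correlated with Ttr at r = 0.85 (permutation, adjusted p = 0.00212) and with Mog at 0.69 (adjusted 0.0194), both now past the threshold, and with Aqp4 at -0.58 (adjusted 0.0514), now short of it. A replicate block on the numbers 2, 3 and 4 that microglia groups share leaves out PF4-1. It gave 0 called members, a median of 0.70 and 31 calls over all genes, against 0, 0.70 and 46 for the same 6 libraries without the block. Libraries of the same number had deviations correlated at 0.14, 0.06 and 0.03. Whether the numbers mark libraries handled together is not known, and these values cannot decide it. Depth limits the genes under 10 counts, and 3 against 4 libraries limit the microglia comparison.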
